A study of Macaca fascicularis with 6 samples.

Results

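The genes described here are the AP-1 transcription factors of the FOS and JUN families, with their relative ATF3, in cells of the cornea of the cynomolgus monkey (Macaca fascicularis). They were chosen by symbol from a list of 8: FOS, FOSB, FOSL1, FOSL2, JUN, JUNB, JUND and ATF3. Of these, 7 were matched in all 6 gene tables, among 14623 genes in all, and JUN was not analysed here. The animals were wild type (WT). Cells were taken without injury (day 0, called uninjured), or after corneal injury at a healing stage of 1 day or 3 days, with 2 samples in each group. Cells were captured singly on the 10x Genomics platform for HIT-scISOseq, which reads whole cDNA molecules. Several clusters of cells had among their leading genes keratins of the corneal epithelium, among them KRT3, KRT12 and KRT14.

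AP-1 is a dimer of basic leucine zipper proteins that binds DNA. A FOS family protein needs a partner to bind, usually one of the JUN family, and the choice of partners sets how strongly the dimer activates its targets. FOS, FOSB, JUNB and ATF3 are immediate early genes, which cells transcribe within minutes of a growth factor, a wound or another stress, through ERK and other MAP kinases, and whose transcripts are short-lived. FOSL1 (FRA-1) and FOSL2 (FRA-2) lack the strong activation domain of FOS, and FOSL1 is itself a target of AP-1 and of sustained ERK signalling. FOSL1 is known from migrating epithelial cells, where matrix metalloproteinases and plasminogen activators are among the known AP-1 targets.

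The 6 samples held 7895 cell barcodes, 1068 to 1565 in each, with 3733442 to 4928103 counts per sample. Any pair of samples shared 0 to 2 barcodes. The median barcode held 2462 to 3023 counts without injury, 2931 to 3258 at day 1 and 4145 to 4447 at day 3, so depth per cell differed between days. The mitochondrial share of counts ran from 9.12% to 9.32%, from 7.23% to 7.28% and from 4.39% to 4.52% in the same order. Counts were summed over the cells of a sample, and 12294 genes were tested in 1 edgeR fit. Levels are counts divided by the TMM-scaled library size and given per 1e6 counts (CPM). Whether the paired samples of each group are different animals is not stated in the labels, so a p-value here reflects sample-to-sample spread that may be purely technical. The comparisons with uninjured samples share those samples. With scaling to library totals alone, the median change over all genes moved from -0.06 to -0.40 on the log2 scale at day 1 and from -0.03 to -0.46 at day 3. The share of calls that were lower then rose from 50.9% to 70.9% at day 1 and from 47.8% to 75.8% at day 3.

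At day 1, 1 of the 7 AP-1 genes was higher than in uninjured samples (FOSL1) and 6 were lower (FOS, FOSB, FOSL2, JUNB, JUND and ATF3), at an adjusted p under 0.05 in edgeR's quasi-likelihood test. Among all 12294 genes, 30.5% were called higher and 31.7% lower, 62.2% in all. At day 3 the count was again 1 higher and 6 lower, against 28.8% of all genes called higher and 26.4% lower (55.2% in all). Between day 1 and day 3, ATF3 and FOSB were higher at day 3, FOSL1, JUNB and JUND were lower, and FOS and FOSL2 did not pass the test, with 30.5% of all genes called higher and 28.8% lower (59.3% in all). The samples of the compared groups did not overlap for 81.5%, 79% and 79.4% of all genes in the 3 comparisons. For the 7 genes the median log2 change was -0.84 (day 1 against uninjured), -0.54 (day 3 against uninjured) and -0.17 (day 3 against day 1). The medians over all genes tested were -0.06, -0.03 and 0.02.

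FOS, the founding member of its family and a standard immediate early gene, stood at 4227 and 4305 CPM in the uninjured samples, 1385 and 1294 CPM at day 1, and 1378 and 1402 CPM at day 3. The uninjured samples were high, and the day 1 and day 3 samples overlapped. FOS fell by 1.67 on the log2 scale (SE 0.08), 3.18-fold, at day 1 (edgeR adjusted p = 9.99e-09). It was still lower by 3.07-fold at day 3 (log2 change -1.62, SE 0.08, edgeR adjusted p = 1.56e-08). Day 3 against day 1 gave a log2 change of 0.05 (SE 0.08, edgeR adjusted p = 0.571), which turned to -0.031 with totals alone.

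FOSB, a close relative of FOS, was at 1047 and 1231 CPM when uninjured, 597 and 592 CPM at day 1, and 763 and 803 CPM at day 3. The 3 groups did not overlap, with the lowest values at day 1 and intermediate values at day 3. The log2 change was -0.94 (SE 0.09) at day 1 and -0.54 (SE 0.09) at day 3 against uninjured, and 0.40 (SE 0.09) at day 3 against day 1 (edgeR adjusted p = 3.86e-06, 0.000347 and 0.00278).

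FOSL1, the member that is typical of activated and migrating epithelium, had the opposite course. Its level was 28.7 and 28.1 CPM in uninjured samples, 172 and 181 CPM at day 1, and 47.4 and 46.8 CPM at day 3. All values at day 1 lay above all at day 3, and these above all uninjured values. FOSL1 rose 6.22-fold at day 1 (log2 change 2.64, SE 0.08, edgeR adjusted p = 6.12e-10) and fell 3.74-fold from day 1 to day 3 (log2 change -1.90, SE 0.08, edgeR adjusted p = 1.07e-08). At day 3 it was still 1.66-fold above uninjured (log2 change 0.73, SE 0.10, edgeR adjusted p = 6.27e-05), a change of 0.31 with totals alone. In raw counts FOSL1 rested on 144 and 161 counts without injury, 782 and 653 on day 1, and 206 and 191 on day 3.

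FOSL2, the other Fos-related antigen, was at 268 and 295 CPM in uninjured samples, 225 and 223 CPM at day 1, and 196 and 201 CPM at day 3. The groups did not overlap, and the uninjured samples were the highest. Its log2 change was -0.33 (SE 0.08) at day 1 and -0.50 (SE 0.08) at day 3 against uninjured (edgeR adjusted p = 0.00295 and 0.000204). Day 3 against day 1 did not pass (log2 change -0.17, SE 0.08, edgeR adjusted p = 0.0814), although it passed with totals alone (-0.26, edgeR adjusted p = 0.018).

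Of the JUN family, whose proteins pair with FOS proteins or with each other, JUNB was measured at 2390.3 and 2403 CPM in uninjured samples, 1277 and 1396 CPM at day 1, and 975 and 916 CPM at day 3. JUNB is an immediate early gene with weaker activity at many promoters than JUN. It was lower at each later time, with no overlap between groups: the log2 change was -0.84 (SE 0.08) at day 1 and -1.34 (SE 0.08) at day 3 against uninjured, and -0.50 (SE 0.08) at day 3 against day 1 (edgeR adjusted p = 3.49e-06, 1.09e-07 and 0.000262).

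JUND, the JUN member that many cell types express without stimulation, was at 176 and 169 CPM when uninjured, 138 and 137 CPM at day 1, and 101 and 85.8 CPM at day 3. These groups too did not overlap and stood in the order uninjured, day 1, day 3. The log2 change was -0.33 (SE 0.08, edgeR adjusted p = 0.00477) at day 1, a call that DESeq2 did not make (adjusted p = 0.0835). It was -0.88 (SE 0.09, edgeR adjusted p = 5.54e-06) at day 3 against uninjured and -0.55 (SE 0.09, edgeR adjusted p = 0.000272) at day 3 against day 1.

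ATF3, a stress-induced partner of JUN proteins that often represses transcription, was at 1042 and 1038 CPM in uninjured samples, 394 and 369.6 CPM at day 1, and 836 and 791 CPM at day 3. Day 1 was the low point, and day 3 lay between day 1 and the uninjured values. How far it returned depended on the measure. In cells thinned to 1000 counts each (described below), mean ATF3 counts per cell were 1.29 and 1.28 when uninjured. They were 0.338 and 0.342 at day 1, and 0.756 and 0.674 at day 3. ATF3 fell 2.72-fold at day 1 (log2 change -1.44, SE 0.08, edgeR adjusted p = 4.00e-08), rose 2.13-fold from day 1 to day 3 (log2 change 1.09, SE 0.08, edgeR adjusted p = 5.78e-07) and was 1.28-fold below uninjured at day 3 (log2 change -0.35, SE 0.08, edgeR adjusted p = 0.00228).

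**Figure D1:**
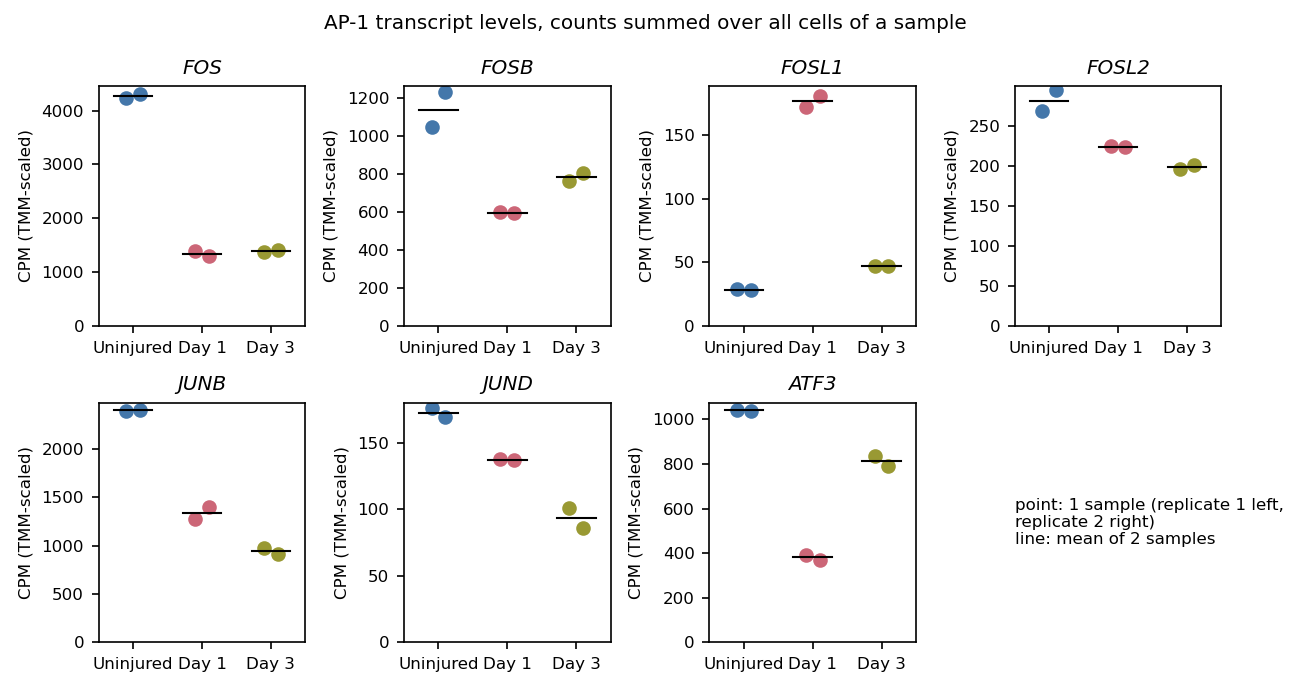
Level of each of the 7 AP-1 genes in the 6 samples, in TMM-scaled CPM on linear axes from 0. Each point is 1 sample and each line the mean of the 2 samples of a group: FOSL1 peaks at day 1 (172 and 181 CPM), while FOS is highest in uninjured samples (4227 and 4305 CPM).

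Other features of the samples moved with these groups. Basal-like cells, a class defined below, were 56.2% and 51.6% of uninjured cells, 38.9% and 38.8% of day 1 cells, and 24.2% and 24.3% of day 3 cells. Conjunctival-like cells were 13.3% and 15.7%, then 18.9% and 18.6%, then 28.6% and 29.4%. Clusters were named by marker levels relative to the other cells of the same sample, so these shares are not on 1 scale across days. The summed level of 12 basal or limbal markers was 14167 to 14804 CPM without injury, 8673 to 8739 CPM on day 1 and 37807 to 39395 CPM on day 3, where GPHA2 was listed at 0. At day 3 this sum was thus higher than uninjured, while the basal-like share was lower. For 5 conjunctival or goblet markers it was 2533 to 2882 CPM, 3049 to 3196 CPM and 5577 to 5597 CPM, and for 12 differentiated corneal markers 32748 to 32820 CPM, 35984 to 37809 CPM and 31779 to 33718 CPM. The summed level of 6 keratocyte or fibroblast markers was 418 to 542 CPM in uninjured samples, 190 to 205 CPM at day 1 and 781 to 789 CPM at day 3, and 4 of the 6 (COL1A2, COL3A1, KERA and LUM) were listed at 0 in uninjured samples. DCN alone made up most of the sum, at 478 ± 86.8 CPM (SD, n = 2) when uninjured, 194 ± 11.1 CPM at day 1 and 685 ± 1.51 CPM at day 3. The summed level of 7 immune markers was 127 to 137 CPM, 191 to 198 CPM and 174 to 205 CPM, and FCER1G was at 0 in uninjured samples. Among 13 genes known to respond to tissue dissociation, 3 were higher and 7 lower at day 1, 5 higher and 6 lower at day 3 against uninjured, and 7 higher and 3 lower at day 3 against day 1. The shares of all genes higher and lower were 30.5% and 31.7%, 28.8% and 26.4%, and 30.5% and 28.8% in the same order. A gene listed at 0 may have had a few counts, since rows with few cells seem to have been left out of the tables. NR4A1, an immediate early nuclear receptor of the dissociation list, was at 975 ± 17.4 CPM (SD, n = 2) in uninjured samples, 203 ± 5.30 CPM at day 1 and 303 ± 12.7 CPM at day 3. It is 1 gene of that list, in which 3 genes were higher at day 1 and 5 at day 3 against uninjured. FOS, FOSB, JUNB and ATF3 are themselves known to be induced when tissue is dissociated. The part of these features, and of the mitochondrial share and depth, in the AP-1 values was not tested.

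The balance of FOS to FOSL1 was taken as the ratio of their summed counts in a sample. A count ratio of different genes depends on their transcripts, but its change between samples does not depend on length or on scaling. The uninjured ratios were 147 and 153, those of day 1 were 8.04 and 7.14, and those of day 3 were 29.1 and 29.9. The 3 groups did not overlap: FOS counts exceeded FOSL1 counts in every sample, by the least at day 1. On the log2 scale the ratio was 7.23 ± 0.04 (SD, n = 2) uninjured, 2.92 ± 0.12 at day 1 and 4.88 ± 0.03 at day 3. It was 19.8-fold lower at day 1 than uninjured and 5.10-fold lower at day 3, and 3.89-fold higher at day 3 than at day 1. With 2 samples against 2, the exact two-sided permutation test cannot give less than p = 0.333, and it gave p = 0.333 in each of the 3 comparisons. Each difference was many times the SD between the samples of a group. That SD rests on 2 samples whose spread may be purely technical, so it may not measure the spread between animals.

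Within single cells the balance shifted in the same direction. The shares of cells rest on the same FOS and FOSL1 counts as the summed ratio, so they are no separate support for it. To remove differences in depth, each cell was thinned to 1000 counts, which left out 146 shallower uninjured cells, 206 of day 1 and 17 of day 3. Cells with a count of FOSL1 and none of FOS numbered 0 of 1488 and 0 of 1348 in the uninjured samples, which allows a share of up to 0.202% and 0.223%. They made up 7.21% (95% exact binomial interval 5.91% to 8.69%) and 7.97% (6.46% to 9.69%) at day 1, and 2.03% (1.28% to 3.06%) and 1.79% (1.08% to 2.78%) at day 3. The day 1 intervals lay above those of both other groups. Without thinning the shares were 0% and 0% when uninjured, 8.37% and 8.92% at day 1, and 1.37% and 1.03% at day 3. Intervals and limits cover counting error only.

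Cells with FOS alone went from 92.5% and 92.7% of thinned cells in uninjured samples to 49.9% and 46.9% at day 1 and 59.3% and 60.3% at day 3. Cells with both transcripts were 3.23% and 3.93%, 7.99% and 10.2%, and 2.21% and 2.26% in the same order. The cells with neither were 4.30% and 3.34% when uninjured and 34.9% and 34.9% at day 1, and 36.4% and 35.7% at day 3. Cells with neither were about as frequent at day 3 as at day 1, whereas cells with FOSL1 were fewer at day 3. Cells with at least as many FOSL1 as FOS counts, among those with either, numbered 2 and 3 when uninjured, 168 and 155 at day 1, and 33 and 33 at day 3. Averaged over cells with either transcript, FOS made up 99.4% and 99.3% of the FOS and FOSL1 counts of a cell when uninjured, 83.7% and 81.4% on day 1, and 95.5% and 95.8% on day 3. The median cell held FOS only (100%) in every sample.

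**Figure D2:**
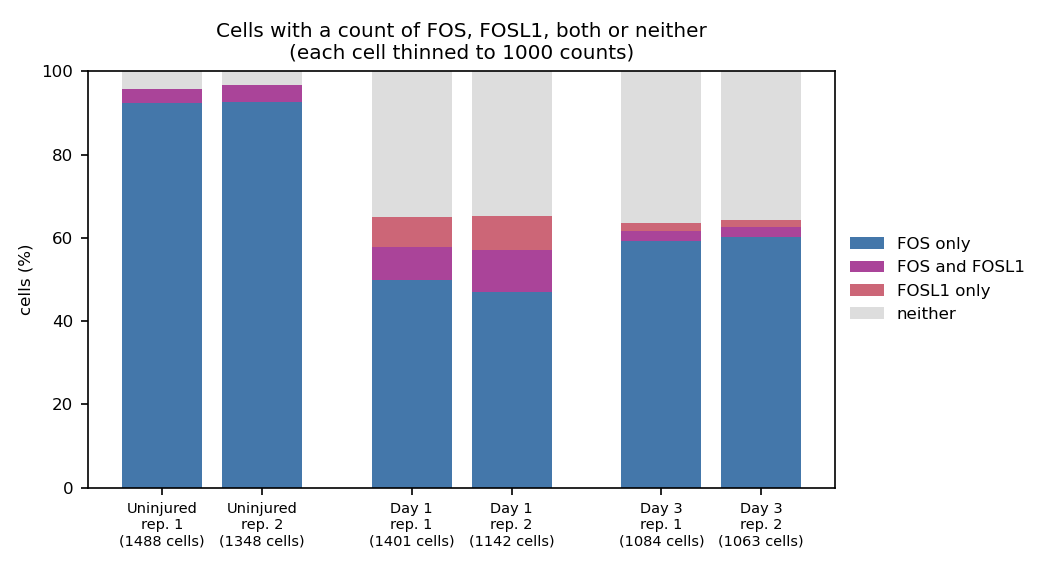
Share of cells (%) with a count of FOS only, of both, of FOSL1 only or of neither, in each of the 6 samples after thinning every cell to 1000 counts; each bar is 1 sample. FOSL1-only cells are 0% of both uninjured samples, 7.21% and 7.97% of those of day 1, and 2.03% and 1.79% of those of day 3.

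Whether FOSL1 was found as often in day 1 cells with FOS as in those without it depended on the counts per cell. With all counts the shares were 36.4% (95% exact binomial interval 33.7% to 39.3%) of FOS-positive and 38.6% (33.3% to 44.2%) of FOS-negative cells of replicate 1, and 37.1% (34.1% to 40.3%) and 35.4% (30.2% to 40.9%) of replicate 2. In cells thinned to 1000 counts the shares were 13.8% (11.5% to 16.4%) and 17.1% (14.2% to 20.4%) in replicate 1, and 17.9% (15.1% to 21.1%) and 18.6% (15.3% to 22.4%) in replicate 2. The intervals overlapped in both samples in these readings. In cells thinned to 2000 counts, which left out 291 and 356 cells, FOSL1 was found less often in FOS-positive cells: 23.4% (20.7% to 26.4%) against 32.5% (27.2% to 38.2%) in replicate 1, and 23.4% (20.2% to 26.8%) against 34.4% (28.5% to 40.8%) in replicate 2. There the intervals did not overlap in either sample. At 500 counts they were apart in replicate 1, with 6.53% (4.66% to 8.85%) against 10.96% (8.97% to 13.2%), and overlapped in replicate 2, with 9.84% (7.34% to 12.8%) against 10.2% (8.11% to 12.6%). In all thinned readings of day 1 the share was lower in FOS-positive cells, and the intervals were apart in 3 of these 6 readings. The readings are thinnings of the same cells of 2 samples, so they are not independent of each other. With all counts the direction differed between the 2 samples.

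Shares of cells with a count followed the summed levels for the other members too. After thinning, the 6 members that were lower at day 1 also had a count in fewer cells of both day 1 samples than of either uninjured sample, and the same 6 did so at day 3. Thinned shares were not computed for other genes, so this count has no share of all genes beside it. In summed level, 81.5% and 79% of all genes did not overlap between these groups, in either direction. FOS had a count in 95.7% and 96.7% of uninjured cells, 57.9% and 57.2% of day 1 cells, and 61.5% and 62.6% of day 3 cells. A thinned uninjured cell held a median of 5 FOS counts in both samples, against 1 in each injured sample. JUNB had a count in 85.9% and 87.2% of cells, then 63.5% and 67.9%, then 53.0% and 50.4%. ATF3 had its low point at day 1, at 63.2% and 62.5%, then 22.8% and 23.5%, then 47.8% and 45.5%. FOSB was at 63.8% and 68.8%, then 38.3% and 39.1%, then 50% and 48.8%.

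FOSL1 had a count in 3.23% and 3.93% of thinned uninjured cells, 15.2% and 18.2% at day 1, and 4.24% and 4.05% at day 3. Its mean at day 3 was 0.0424 and 0.0405 counts per thinned cell, against 0.0343 and 0.0401 when uninjured, too few to read a change from. The rarer FOSL2 went from 24.3% and 25% to 18.1% and 19.7% and then 16.9% and 15.9%, and JUND from 18.3% and 17.7% to 11.6% and 12.1% and then 7.56% and 7.53%. Unthinned shares are higher in the deeper day 3 cells. Unthinned, ATF3 was found in 81.9% and 84.1% of uninjured, 45.8% and 41.8% of day 1 and 85.5% and 84.2% of day 3 cells. FOSL1 was found in 8.31% and 10.1%, 36.9% and 36.7%, and 17.1% and 16.1% of unthinned cells, and FOS in 98.7% and 98.6%, 78.3% and 74.8%, and 91.1% and 91.8%. No cell class in these samples is known to lack these genes, so counts from free RNA were not measured.

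The cells were clustered without the AP-1 genes, and clusters were grouped by marker genes into basal-like, differentiated-like and conjunctival-like classes. Cells in none of these classes were 0.767% and 1.83% when uninjured, 0.742% and 0.631% at day 1, and 21.0% and 20.1% at day 3. At day 3 they were mainly clusters 10 and 11. Cluster 10 was led by COL1A1, with the cycling genes TOP2A, CENPF and MKI67 also among its leading genes. Cluster 11 was led by PLAAT2. The class comparisons leave these cells out. Most clusters came from 1 group of samples. The basal-like class was held mainly by clusters 0 and 3 when uninjured, 3 and 4 at day 1, and 8 at day 3. The differentiated-like class was cluster 2, then 1, then 6, and the conjunctival-like class cluster 9, then 7, then 5. In the conjunctival-like clusters AQP5, from the differentiated marker list, stood beside KRT4 among the leading genes. In the summed counts of a sample, fewer cells of a type and less RNA per cell cannot be told apart, and the class sums hold the class fixed as far as these names do.

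In the basal-like class at day 1, FOSL1 was higher and 5 of the 7 genes were lower than uninjured, against 28.5% and 28.1% of all genes in that class. The differentiated-like class also had 1 higher and 5 lower (27.3% and 28% of all genes), and so did the conjunctival-like class (25.1% and 22.5%). FOSL1 stood at 28 and 34.2 CPM in uninjured basal-like cells, 246 and 251 CPM at day 1, and 44.6 and 42.5 CPM at day 3. In differentiated-like cells it was 25.8 and 20.5 CPM, 114 and 124 CPM, and 38.6 and 44.1 CPM. Its log2 change at day 1 was 3.00 (SE 0.14) in basal-like, 2.37 (SE 0.14) in differentiated-like and 2.26 (SE 0.15) in conjunctival-like cells, all with an edgeR adjusted p of 4.09e-09 or less.

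ATF3 fell most in the basal-like class, from 1181 and 1216 CPM to 294 and 253 CPM at day 1. In the differentiated-like class it went from 1027 and 996 CPM to 520.1 and 466 CPM. The log2 changes were -2.13 (SE 0.11) and -1.04 (SE 0.09). The difference between these changes was 1.09 (SE 0.10), and the interaction passed (edgeR adjusted p = 1.29e-17). FOSL2 fell at day 1 in the differentiated-like class (log2 change -0.91, SE 0.10, edgeR adjusted p = 1.25e-07), and gave -0.09 (SE 0.12) in the basal-like and 0.11 (SE 0.12) in the conjunctival-like class. The differentiated-like change differed from both: by -0.83 from the basal-like change (edgeR adjusted p = 7.88e-08), and with conjunctival-like minus differentiated-like at 1.07 (edgeR adjusted p = 1.37e-12). All 7 genes passed the test of a day 1 change that differed between differentiated-like and basal-like cells, against 14.2% of all genes. Of the basal-like clusters, only cluster 3 was well held on both days. Within it ATF3, FOS, FOSB and JUNB changed by -0.82, -0.86, -0.52 and -0.62. The differentiated-like changes were larger, at -1.04, -1.46, -0.77 and -0.71. FOSL2 changed by -0.57 in cluster 3. FOSL1 (2.92 against 2.37) and JUND (-0.37 against -0.12) kept the order of the classes. The part of the exchange of clusters in the class differences was not tested.

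At day 3 against uninjured, 6 of the 7 genes were lower in each class, with 19% of all genes lower in basal-like, 20.6% in differentiated-like and 19.7% in conjunctival-like cells, and 22.7%, 23% and 23.8% higher. With the finer clustering 4 were lower in differentiated-like cells. There the uninjured cells of this class were mainly 1 cluster with 192 uninjured cells, against 885 in cluster 2 of the main clustering. Another cluster with 693 uninjured cells was left unnamed. The part of this in the lost calls was not tested. FOSL1 was higher in the differentiated-like class (log2 change 0.85, SE 0.20, edgeR adjusted p = 0.00167) and the conjunctival-like class (0.50, SE 0.18, edgeR adjusted p = 0.036), and gave 0.49 (SE 0.21, edgeR adjusted p = 0.0619) in the basal-like class. The differences between classes did not pass, and with a finer clustering neither class had a gene called higher. JUNB fell from 2972 and 3053 CPM in uninjured basal-like cells to 763 and 755 CPM at day 3, a log2 change of -1.99 (SE 0.11). In the differentiated-like class the change was -1.14 (SE 0.09), and the difference of 0.83 (SE 0.08) passed (edgeR adjusted p = 3.47e-15). Of the 7 genes, 3 passed the test of a day 3 change that differed between these classes, with 15.8% of all genes.

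Between day 1 and day 3, FOSL1 and JUNB fell and ATF3 rose in each class. The basal-like class had 2 genes higher and 2 lower (23.6% and 22.9% of all genes), the differentiated-like class 2 and 3 (25.6% and 24.6%), and the conjunctival-like class 3 and 4 (23.7% and 23.4%). FOSL1 changed by -2.51 (SE 0.15) in basal-like, -1.52 (SE 0.15) in differentiated-like and -1.77 (SE 0.14) in conjunctival-like cells. FOSB rose in basal-like (log2 change 0.72, SE 0.11) and conjunctival-like cells (0.73, SE 0.11), and gave 0.05 (SE 0.10) in differentiated-like cells. FOS rose in the conjunctival-like class (log2 change 0.42, SE 0.10, edgeR adjusted p = 0.0028), and gave 0.14 in basal-like and -0.15 in differentiated-like cells.

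The number of the 7 genes whose change differed between classes varied with the pair. For day 1 against uninjured it was 4 between conjunctival-like and basal-like cells (10.8% of all genes) and 5 between conjunctival-like and differentiated-like cells (12.9%). For day 3 against uninjured these pairs gave 5 (14.2%) and 1 (12.7%). For day 3 against day 1 they gave 3 (13.4%) and 4 (17.3%), and differentiated-like against basal-like cells gave 6 (16.8%).

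**Figure D3:**
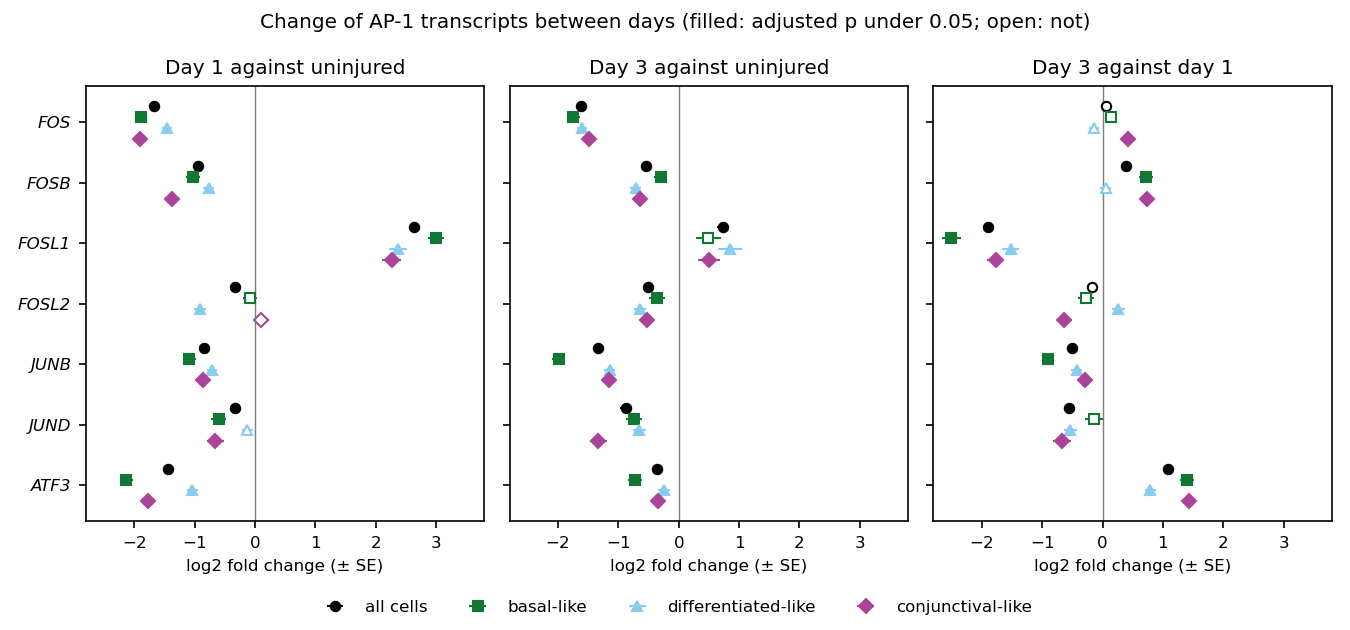
Log2 fold change with its SE for the 7 genes in each of the 3 comparisons, in all cells and in the 3 cell classes; filled symbols passed edgeR's adjusted threshold of 0.05 and open ones did not. At day 1 the FOSL1 change is largest in basal-like cells (3.00), and FOSL2 passes in differentiated-like cells (-0.91) and not in the other classes.

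Cluster 3, a basal-like cluster led by SYNE1 and SPARC, held at least 50 cells in each of the uninjured and day 1 samples (391 and 353 cells in all), so it allowed a comparison within 1 cluster. It was chosen after the clusters were seen. FOSL1 rose there from 17.0 and 18.4 CPM to 138 and 131 CPM (log2 change 2.92, SE 0.29, edgeR adjusted p = 3.26e-09). FOS fell from 3599 and 3702 CPM to 2037 and 1981 CPM (log2 change -0.86, SE 0.13, edgeR adjusted p = 6.23e-06). FOSB, FOSL2, JUNB and ATF3 fell as well, with log2 changes of -0.52, -0.57, -0.62 and -0.82, and JUND gave -0.37 (SE 0.17, edgeR adjusted p = 0.103). Of all genes tested in this cluster, 15.3% were higher and 15% lower, 30.3% in all.

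Levels also varied between the clusters of a sample, given here as CPM of the cluster's own total, without a test. Among uninjured clusters, FOS was highest in cluster 0, led by GPHA2 and KRT14, at 6775 and 6986 CPM, and lowest in cluster 3, at 3512 and 3617 CPM. JUNB and ATF3 showed the same order, with JUNB at 4137 and 4247 CPM against 1577 and 1589 CPM, and ATF3 at 1537 and 1578 CPM against 832 and 859 CPM. Cluster 0 had the shallowest cells, with a median of 1556 and 1801 counts, and the part of depth in its levels was not tested. FOSL2 differed in pattern: it was highest in differentiated-like cluster 2, at 442 and 457 CPM, and lowest in cluster 0, at 162 and 193 CPM.

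At day 1 the basal-like clusters 3 and 4 differed from each other. Cluster 4, led by MMP1, S100A2 and KRT14, had the highest FOSL1 of all clusters, at 299 and 341 CPM, with FOS at 949 and 970.2 CPM. It also had the lowest ATF3 of all clusters, at 115 and 88.2 CPM, and the highest JUNB of that day, at 1487 and 1784 CPM. Cluster 3 of the same day had FOSL1 at 130.2 and 127 CPM, FOS at 1923 and 1920.4 CPM, ATF3 at 477 and 457 CPM and JUNB at 975 and 1039 CPM. The ratio of FOS to FOSL1 counts was 3.17 and 2.85 in cluster 4 and 14.8 and 15.1 in cluster 3. It was 5.88 and 4.83 in conjunctival-like cluster 7 and 12.9 and 11.2 in differentiated-like cluster 1. At day 3 it ranged from 13.8 to 50.3 over the clusters with at least 50 cells in a sample, and in uninjured samples from 87.3 to 212. Cluster values at day 3 and in uninjured samples rest on as few as 10 FOSL1 counts.

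**Figure D4:**
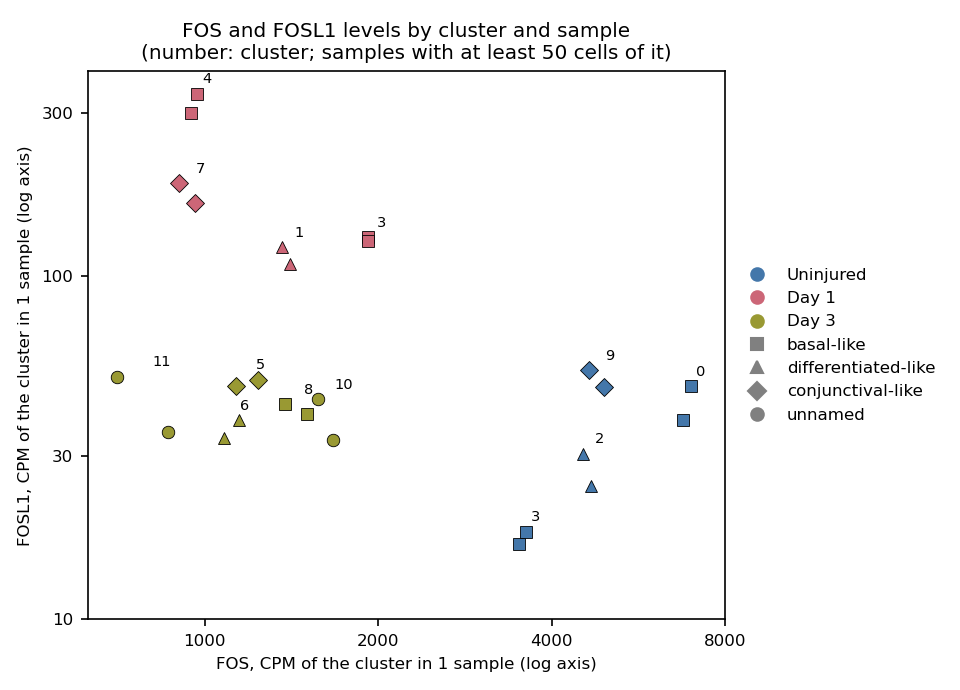
FOS level (x axis) against FOSL1 level (y axis) of each cluster in each sample with at least 50 of its cells, in CPM of the cluster's total, both axes log; color gives the group, shape the class and the number the cluster. Day 1 clusters lie above all others in FOSL1, with cluster 4 the highest (299 and 341 CPM), and uninjured clusters lie furthest right in FOS.

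Across the cells of a sample, thinned to 1000 counts, FOS varied together with some of the other immediate early genes, most in the uninjured samples. Spearman's rho between FOS and JUNB was 0.395 and 0.396 when uninjured, 0.085 and 0.116 at day 1, and 0.007 and 0.042 at day 3. For FOS and ATF3 it was 0.253 and 0.302, then 0.194 and 0.225, then 0.117 and 0.059. For FOS and FOSB it was 0.239 and 0.242, then 0.226 and 0.194, then 0.089 and 0.088. FOS and FOSL1 lay between -0.069 and 0.063. These are descriptions over 1063 to 1488 cells of a sample, which share a library, and sparse counts bring rho toward 0, so the lower values on injured days, when counts are fewer, are no finding.

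The isoform tables were named in different ways: PB numbers in both uninjured samples and day 1 replicate 1, and Ensembl identifiers in day 1 replicate 2 and day 3. They are described within each system only. In the PB tables most FOS counts were of class NNC, which holds transcripts with a splice site outside the annotation: 93.4% (95% exact binomial interval 93.0% to 93.7%) and 93.5% (93.2% to 93.8%) when uninjured and 94.6% (93.9% to 95.2%) at day 1. A single isoform, with the same PB number in the 3 tables, took 87.5%, 87.8% and 89.0% of FOS counts. FOSB was likewise 91.5%, 91.7% and 95.0% NNC, and ATF3 99.9%, 99.7% and 100%. FOSL2 (2.47%, 1.81% and 3.00% NNC) and FOSL1 (no NNC counts listed when uninjured, 0.719% at day 1) were mainly FSM, a full match to an annotated transcript, and JUNB was wholly FSM. Over all genes, NNC made up 26.6%, 25.4% and 25.3% of counts in these tables.

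The leading FOSL1 isoform, again 1 PB number, held 90.6% (84.4% to 94.9%) and 91.1% (86.1% to 94.7%) of FOSL1 isoform counts when uninjured, and 76.6% (73.6% to 79.5%) at day 1, where 1 library gives no replicate check. In the Ensembl-named tables all FOS, FOSB, FOSL1, FOSL2 and ATF3 counts were FSM, and those tables list no NNC class for any gene. For FOS, isoform counts were 0.858, 0.864 and 0.829 of the gene-table count in the PB tables and 0.629, 0.339 and 0.304 in the others. For FOSL1 the ratios were 0.958, 1.18 and 1.07, and 0.551, 0.180 and 0.209, and for ATF3 0.653, 0.705 and 0.640, and 0.381, 0.255 and 0.266. FOSB had the opposite order, with 0.355, 0.339 and 0.278 in the PB tables and 0.849, 0.526 and 0.521 in the others. FOSL2 was at 0.601, 0.588 and 0.622, and 0.845, 0.462 and 0.479. Because the naming splits the groups, isoform use cannot be told apart from the way the tables were made.

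Other genes around AP-1 were read from lists. The counts called in each list are to be read against the shares of all genes called. These were 30.5% higher and 31.7% lower at day 1, 28.8% and 26.4% at day 3, and 30.5% and 28.8% at day 3 against day 1. Of 9 tested partner genes (JDP2, ATF4 and others), 4 were higher and 4 lower at day 1, 4 and 3 at day 3, and 2 and 4 at day 3 against day 1. JDP2, which represses AP-1, fell from 73.0 ± 5.24 CPM (SD, n = 2) to 19.8 ± 2.52 CPM at day 1 and 9.51 ± 0.42 CPM at day 3. ATF4, the integrated stress response factor, was at 217 ± 10.5 CPM when uninjured and fell from 624 ± 7.05 CPM at day 1 to 232 ± 7.50 CPM at day 3.

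Of 24 upstream kinases and SRF or ETS factors, 8 were higher and 10 lower at day 1, 7 and 9 at day 3, and 6 and 8 at day 3 against day 1. Among all genes 30.5% were higher and 31.7% lower at day 1, 28.8% and 26.4% at day 3, and 30.5% and 28.8% at day 3 against day 1. ELK3, an ETS factor of the serum response, rose from 3.50 ± 0.72 CPM to 41.0 ± 0.91 CPM at day 1 and was at 25.6 ± 4.33 CPM at day 3. RPS6KA3, the kinase RSK2 below ERK, rose from 31.7 ± 2.58 CPM to 124 ± 14.3 CPM and was at 51.2 ± 2.43 CPM at day 3. MAP2K6, which activates p38, fell from 20.5 ± 0.61 CPM to 3.18 ± 0.18 CPM at day 1 and rose to 12.0 ± 0.98 CPM at day 3. These calls were made by edgeR as above.

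Of 17 feedback inhibitors of MAP kinase signalling and of immediate early transcripts, 8 were higher and 6 lower at day 1, then 6 higher and 11 lower at day 3 against uninjured, and 2 higher and 10 lower at day 3 against day 1. The shares of all genes beside these counts are those given for the upstream list. The median log2 change of the feedback genes was 0.31, -0.82 and -0.67 in those comparisons. The first was -0.02 with totals alone. The ERK phosphatases DUSP5, DUSP6 and DUSP7 were higher at day 1: DUSP5 rose from 13.1 ± 2.29 CPM to 103 ± 4.59 CPM, DUSP6 from 47.1 ± 3.89 CPM to 176 ± 9.11 CPM, and DUSP7 from 20.4 ± 0.06 CPM to 97.7 ± 5.87 CPM. At day 3, DUSP5 was at 36.0 ± 6.30 CPM, DUSP7 at 38.3 ± 4.52 CPM, and DUSP6 at 26.0 ± 3.55 CPM. The Sprouty genes SPRY1 and SPRY2, inhibitors of receptor tyrosine kinase signalling, were lower at day 3 than uninjured, by 2.12 and 1.64 on the log2 scale, and SPRY4 was listed at 0 at day 3.

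Of 17 textbook AP-1 targets, 14 were higher at day 1 and none lower, and 16 were higher and none lower at day 3, against 30.5% and 28.8% of all genes called higher. The list was chosen with earlier results of these data known, so the shares of all genes are no independent measure for it. Genes at 0 in uninjured samples, MMP3 and MMP9 among them, passed the count filter through injured samples. They could only come out higher than uninjured. The part of AP-1 in these changes was not tested. Over the alternative fits 13 to 14 were higher at day 1 and 13 to 16 at day 3, with at most 1 lower. Between day 1 and day 3, 4 were higher and 10 lower. The median log2 change was 3.15 at day 1 (2.71 with genes at 0 in a group held at a bound of 3 counts), 2.48 at day 3 and -0.40 between them. IVL (involucrin), a cornified envelope gene, was at 0 and 2.19 CPM in uninjured samples and rose to 68.7 ± 10.0 CPM at day 1 and was at 78.8 ± 14.8 CPM at day 3. MMP3 and MMP9, matrix metalloproteinases, were listed at 0 in uninjured samples; MMP3 was at 15.9 CPM at day 1 and 3.32 CPM at day 3, and MMP9 at 4.95 CPM at day 1 and 22.7 CPM at day 3. VIM (vimentin) was at 7.35 ± 0.03 CPM when uninjured and rose from 20.5 ± 8.71 CPM at day 1 to 626 ± 34.9 CPM at day 3, when the summed keratocyte or fibroblast markers were also higher; their part was not tested.

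Among 3862 genes with a mean log2 CPM of at least 5, those whose log2 CPM over the 6 samples was most like that of FOS were XPC, DUSP1, MYCBP2, FGFR3 and MYLIP, with Pearson's r of 0.998 to 0.996. DUSP1, a MAP kinase phosphatase and an immediate early gene, had mean levels of 1562 CPM uninjured, 832 CPM at day 1 and 886 CPM at day 3. Most like FOSL1 were FARSB, PSMD12, PPM1G, PPP4R1 and EIF3B (r of 0.999 for each). PSMD12, a proteasome subunit, was at 68.2, 283 and 101 CPM in the same order. With 3 groups of 2 samples such values rest mainly on 3 group means.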

How the data were processed

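Gene counts per cell barcode were deposited by the authors for 2 samples of each of 3 groups, and isoform counts for the same samples. Cell Ranger is named in the submitters' processing notes. For the aligner, the genome build and the reads behind the gene counts: not given in the sources used here. JUN was not analysed here.

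Counts were summed per sample and tested with edgeR 4.0.16 (R 4.3.3; TMM, filterByExpr, quasi-likelihood F test over all 6 samples, no covariates, Benjamini-Hochberg threshold of 0.05 over all 12294 genes tested). Class sums used the same test in samples with at least 50 cells of a class, and differences between classes an interaction term with the sample as block. Cells were clustered within-sample scaled, without the AP-1 genes (scanpy 1.11.5, leidenalg 0.10.2; 2000 variable genes, 30 components, 15 neighbours, resolution 0.5, alternative 1.0). Scrublet marked 66 doublets (0.836%), which were kept, as were 68 barcodes under 500 counts; leaving out each was an alternative. Shares of cells were taken after thinning to 1000 counts (alternatives 500 and 2000), with 95% exact binomial intervals and a limit of 3 counts for a share of 0. Other alternatives were DESeq2 1.42.0, scaling to totals, no low-count filter, the replicate number as block, leaving out each sample, and limma 3.58.1 on the mean of per-cell CPM. In simulated counts of day 1 against uninjured over 11873 genes, the edgeR fit recovered 99.0% of 4-fold and 79.6% of 2-fold changes and called 0.0343% of unchanged genes. The simulation gave all genes the same spread and changed few of them, whereas 62.2% of genes were called in the data. It checks the fit and does not give the rate of false calls in these samples.

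All AP-1 genes were named. From each other list up to 3 genes per comparison, those past the threshold with the largest absolute log2 change, could be named, and the 5 genes most like FOS and FOSL1. A gene that the rule would name is not reported here. The members and lists were chosen with earlier results of these data known. Beside the marker lists given in the report, summed melanocyte markers were 64.8 to 83.9 CPM in uninjured samples, 24.2 to 32.7 CPM at day 1 and 27.5 to 37.8 CPM at day 3. Vascular markers were at most 5.73 CPM in any sample. Cycling markers were 139 to 175 CPM, 77.4 to 80.0 CPM and 288 to 303 CPM, and none of 4 red blood cell markers was matched.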

Additional observations from a re-analysis of the deposited data

Results flagged for a closer look

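The values below are differences between 2 cell classes in a gene's log2 change over the same days, and each passed the interaction test (edgeR, adjusted p under 0.05). Classes were held by different clusters on different days, and the part of this in the differences was not tested.

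For day 1 against uninjured, the change in differentiated-like minus that in basal-like cells was 0.43 for FOS, 0.25 for FOSB, -0.63 for FOSL1, -0.83 for FOSL2, 0.37 for JUNB, 0.47 for JUND and 1.09 for ATF3. By these class sums ATF3 fell less, and FOSL1 rose less, in differentiated-like cells. Against basal-like cluster 3 alone the order was reversed for ATF3, which changed by -0.82 there and by -1.04 in differentiated-like cells. It was also reversed for FOS, FOSB and JUNB, and was kept for FOSL1, FOSL2 and JUND. Conjunctival-like minus basal-like gave -0.31 for FOSB, -0.69 for FOSL1, 0.27 for JUNB and 0.39 for ATF3. Conjunctival-like minus differentiated-like gave -0.41 for FOS, -0.56 for FOSB, 1.07 for FOSL2, -0.49 for JUND and -0.70 for ATF3.

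For day 3 against uninjured, differentiated-like minus basal-like was -0.43 for FOSB, 0.83 for JUNB and 0.46 for ATF3. Conjunctival-like minus basal-like was 0.25 for FOS, -0.34 for FOSB, 0.83 for JUNB, -0.59 for JUND and 0.38 for ATF3. JUNB fell more in basal-like cells than in both other classes. Conjunctival-like minus differentiated-like was -0.66 for JUND.

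For day 3 against day 1, differentiated-like minus basal-like was -0.31 for FOS, -0.69 for FOSB, 0.97 for FOSL1, 0.53 for FOSL2, 0.46 for JUNB and -0.63 for ATF3. FOSL1 fell more, and ATF3 rose more, in basal-like cells. Conjunctival-like minus basal-like was 0.69 for FOSL1, 0.56 for JUNB and -0.57 for JUND. Conjunctival-like minus differentiated-like was 0.53 for FOS, 0.66 for FOSB, -0.94 for FOSL2 and 0.62 for ATF3.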

How the results depend on the processing

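Of 273 log2 changes of the 7 genes under 13 alternative settings, 269 kept their direction and side of the threshold. JUND at day 1 did not pass in DESeq2 (-0.32), FOSL2 at day 3 against day 1 passed with totals alone (-0.26) and with the mean of per-cell CPM (-0.25), and FOS at day 3 against day 1 turned to -0.031 with totals alone; the cause was not tested. Leaving out each sample left 1 gene higher and 6 lower in both comparisons with uninjured, and 2 higher and 3 lower at day 3 against day 1. The FOS to FOSL1 balance then ranged from -4.39 to -4.22, from -2.38 to -2.32 and from 1.88 to 2.05 (log2), and the mean of per-cell CPM gave -4.68 at day 1 and 2.29 at day 3 against day 1. The mean FOS percentage per cell was 99.3 when uninjured at 2000 counts, and at day 3 it was 96.9 at 500 and 96.0 at 2000 counts. At 500 counts 0 genes had a higher share of cells at day 3 than uninjured. With Leiden resolution 1.0, 0 genes were higher at day 3 in differentiated-like and in conjunctival-like cells. Their day 3 changes then differed for 3 genes, and conjunctival-like minus differentiated-like turned to 0.18 for FOSL1 at day 1 and to -0.11 for FOS, -0.28 for FOSB and -0.064 for JUNB at day 3. At this resolution a large uninjured cluster was left unnamed, so the differentiated-like values rest on fewer uninjured cells. DESeq2 called 4623, 3590 and 4317 of all genes, and edgeR 7646, 6792 and 7294. Deviations of same-numbered samples from their group means correlated at 0.030, 0.050 and 0.021 over all genes. These values do not show that the numbers pair the samples, and with 2 samples in a group they cannot exclude it. With the replicate block, 1 gene was higher and 6 lower in both comparisons with uninjured, and 2 higher and 3 lower at day 3 against day 1. With this block 7302 of all genes were called at day 1. Depth limits FOSL1 per cell at day 3.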
